A study of Mus musculus with 6 samples.

Results

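The genes described here are 58 nuclear-encoded subunits of the mitochondrial respiratory chain and ATP synthase, measured by RNA sequencing in cultured mouse lymphoma B cells. They were taken by symbol from the deposited table of 21448 genes, and all 58 were found in it. By name they fall into 25 complex I genes (Nduf), 8 genes of complex III and cytochrome c (Uqcr, Cyc1 and Cycs), 10 complex IV genes (Cox) and 15 ATP synthase genes (Atp5). The series held 3 libraries of cells labelled PRDM15 KO and 3 libraries of cells labelled wild type, called KO and WT here, and numbered 1 to 3 in each group. Both groups were primary lymphoma cells of E mu-Myc transgenic mice, in which Myc is driven in the B lineage by the immunoglobulin heavy-chain enhancer, so the controls carried the oncogene too. Per the labels, deletion was induced with OHT at 50 nM and controls received EtOH, each for 24 h, and cells were collected 3 days after treatment. The labels do not say which library received which agent, so the agent of each group is read from its genotype. On that reading KO cells received OHT and WT cells EtOH, so a change with the agent cannot be told apart from one with the deletion. The sources used here give neither the Cre driver nor the age of the mice. The cells grew with IL7 in a high-glucose medium. The design text calls the replicates biological, with no word on whether each came from another mouse; the spread behind each p is that among these libraries.

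In the inner mitochondrial membrane, complex I takes electrons from NADH and passes them to ubiquinone, complex III passes them on to cytochrome c, and complex IV hands them to oxygen. The protons pumped on the way return through ATP synthase, also called complex V, whose turning rotor drives the making of ATP. Most subunits are encoded in the nucleus, and the transcription factors NRF1, GABP (an ETS factor) and YY1 are known regulators of many of these genes.

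Promoters of 48 of the 58 genes were found in the RefSeq table of the GRCm38.p6 build, each as 300 bases around a start of the gene. They were searched on both strands for 4 motifs, and a gene with several starts counted if any of them matched. The NRF1 motif (GCGC and TGCGC with any 1 base between) was present in 12 of the 48 (25%), against 5.19% of the 27025 genes in the table. The ETS motif CCGGAAG was also present in 12 (25%), against 9.93% of all genes in the table. The YY1 motif AAGATGGCG was present in 7 (14.6%), against 1.64%. The complexes differed: YY1 matches were in 5 of 22 complex I and 2 of 14 ATP synthase promoters, but in 0 of 4 for complex III and 0 of 8 for complex IV. The NRF1 share ran from 12.5% in complex IV to 42.9% in ATP synthase. The 27025 genes were not limited to those expressed in these cells. ACGTG, the core of the hypoxia response element, which also lies inside the E-box CACGTG bound by Myc, was present in 11 (22.9%), against 21.8%. A match describes the letters in this window and shows no binding. Printed below, 5′ to 3′ on the strand of the gene and with the motif letters in capitals, are the promoters of the genes with the lowest and the highest change in KO, Ndufa6 (chr15:82354242-82354541, minus strand) and Cycs (chr6:50566520-50566819, minus strand), and of 2 complex IV genes whose KO and WT values did not overlap, Cox6a1 (chr5:115348909-115349208, minus strand) and Cox5a (chr9:57520982-57521281, plus strand). The Ndufa6 capitals are an NRF1 match. Those of Cox6a1 are an NRF1 match on both strands, then an NRF1 and an ETS match on the other strand. Those of Cycs and Cox5a are ACGTG or its reverse complement, and none of them is part of an E-box CACGTG.
Ndufa6: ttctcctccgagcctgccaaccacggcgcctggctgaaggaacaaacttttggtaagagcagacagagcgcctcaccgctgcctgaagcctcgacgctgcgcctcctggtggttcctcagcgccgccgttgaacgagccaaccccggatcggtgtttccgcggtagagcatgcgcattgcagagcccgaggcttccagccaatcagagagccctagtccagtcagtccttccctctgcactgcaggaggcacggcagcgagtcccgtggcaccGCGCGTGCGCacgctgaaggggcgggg
Cycs: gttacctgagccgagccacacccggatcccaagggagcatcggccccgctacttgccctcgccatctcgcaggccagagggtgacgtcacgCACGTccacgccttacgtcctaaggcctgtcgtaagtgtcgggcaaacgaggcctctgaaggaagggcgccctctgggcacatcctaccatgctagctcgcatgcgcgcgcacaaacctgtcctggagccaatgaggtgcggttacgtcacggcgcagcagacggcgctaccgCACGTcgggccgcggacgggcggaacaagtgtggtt
Cox6a1: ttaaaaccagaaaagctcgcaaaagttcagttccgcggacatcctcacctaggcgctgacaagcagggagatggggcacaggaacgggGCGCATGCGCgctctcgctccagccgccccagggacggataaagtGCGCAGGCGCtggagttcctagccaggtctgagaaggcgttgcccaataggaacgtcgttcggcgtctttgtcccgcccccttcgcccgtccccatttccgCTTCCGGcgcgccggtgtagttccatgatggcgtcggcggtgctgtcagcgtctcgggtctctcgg
Cox5a: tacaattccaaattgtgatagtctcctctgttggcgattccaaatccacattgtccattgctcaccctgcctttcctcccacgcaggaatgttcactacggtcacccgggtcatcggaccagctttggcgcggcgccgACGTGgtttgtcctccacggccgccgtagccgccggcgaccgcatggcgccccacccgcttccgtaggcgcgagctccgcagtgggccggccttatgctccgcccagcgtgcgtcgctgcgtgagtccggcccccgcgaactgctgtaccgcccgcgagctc

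Levels are given as the deposited values, which are read numbers scaled to a normalized library total on the counts-per-million scale, written CPM below; they are not scaled to gene length, so levels of different genes are not compared. Libraries held 28852951, 40119748 and 41204788 reads on genes in KO 1 to 3, and 38581112, 40558008 and 47255421 in WT 1 to 3. Cd79b, a signalling chain of the B-cell receptor, had 446 to 519 CPM in KO and 389 to 517 CPM in WT, while Ms4a1 (CD20) was low in both, 0.498 to 2.91 CPM in KO and 1.52 to 6.04 CPM in WT. Over the 10 B-lineage markers the summed level was 1787, 2371 and 2189 CPM in KO 1 to 3 and 1829, 2371 and 2406 CPM in WT 1 to 3. Limma called 0 of these markers in either fit, against 0.00949% of all tested genes without the replicate number as a block and 0.873% with it. Cd22, an inhibitory co-receptor, was lower in KO within each number, with 62.7, 39.3 and 24.6 CPM in KO and 98.7, 125 and 56.2 CPM in WT (DESeq2 with the replicate block, adjusted p = 4.6e-07), and Pax5 was lower within each number too. Replicate number 1 was low in the surrogate light chain genes: Vpreb1 had 30.8, 247 and 223 CPM in KO and 55.8, 268 and 269 CPM in WT, and Igll1 had 92.2, 499 and 276 CPM in KO and 226, 445 and 318 CPM in WT. Myeloid markers set KO 2 and KO 3 apart: the summed level of 15 such genes, of which none was at 0 in any library, was 38.8, 2237 and 1205 CPM in KO 1 to 3 and 61.7, 223 and 169.6 CPM in WT 1 to 3. Mitochondrially encoded transcripts set KO 1 apart, with 3.78%, 1.07% and 1.17% of reads in KO 1 to 3 and 1.63%, 1.004% and 0.968% in WT 1 to 3. Prdm15 itself had 40.2, 40.9 and 39.2 CPM in KO and 29.2, 47.3 and 41.3 CPM in WT, with a log2 change of 0.06 (exact two-sided permutation test over libraries, p = 1, where 0.1 is the smallest p that 3 against 3 allows). A whole-gene value counts reads from exons outside a deletion, so it does not check the genotype label.

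The 58 genes kept nearly the same level in KO and in WT cells. Their summed level was 10996, 12412 and 10717 CPM in KO 1 to 3 and 12285, 11906 and 11082 CPM in WT 1 to 3, which is a ratio of 0.967 between the group means, and 0.895, 1.04 and 0.967 within replicate numbers 1, 2 and 3. The groups overlapped, and the sum was lower in KO for replicate numbers 1 and 3 and higher for number 2. As a share of the library the 58 genes took 1.15%, 1.23% and 1.10% of reads in KO 1 to 3, against 1.19%, 1.17% and 1.10% in WT 1 to 3. In bulk samples a change in the makeup of cells cannot be told apart from a change in RNA per cell.

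No member was called in the limma test on log2(CPM + 1) with Benjamini-Hochberg adjustment over the 10533 genes with a mean of at least 1 CPM, all 58 of which passed that filter, at an adjusted p threshold of 0.05. In that fit 0.00949% of all tested genes, 1 gene, was called. With the replicate number as a block, given here because libraries of the same number deviated together, 0 members were called beside 0.873% of all tested genes. At an unadjusted p under 0.05 there were 2 members in the fit without the block, against 4.06% of all tested genes, and 8 in the fit with it, 2 higher and 6 lower, against 21% of all. The edgeR quasi-likelihood test called 0 members with and without the block, where it called 0.37% and 0% of all tested genes. DESeq2 called 0 without the block, against 0.294% of all tested genes higher and 0.75% lower. With the block DESeq2 called 2 members beside 7.01% of all tested genes, Ndufa6 lower at an adjusted p of 0.0149, against 3.99% of all called lower, and Cycs higher at 0.0377, against 3.02% called higher.

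The largest changes were small. Log2 changes ran between -0.32 for Ndufa6 and 0.21 for Cycs, with a median of -0.06 over the members and -0.03 over all tested genes; 42 members lay below 0 and 16 above, against 6008 and 4525 of the 10533 tested genes. With the replicate block, the 95% interval of the change lay inside 1.5-fold either way for all 58 members, against 80.6% of all tested genes, and without the block for 54 members, against 52.2% of all. The 4 exceptions without the block were Ndufa2, Ndufb2, Atp5a1 and Atp5f1, and all 58 lay inside 2-fold.

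**Figure D1:**
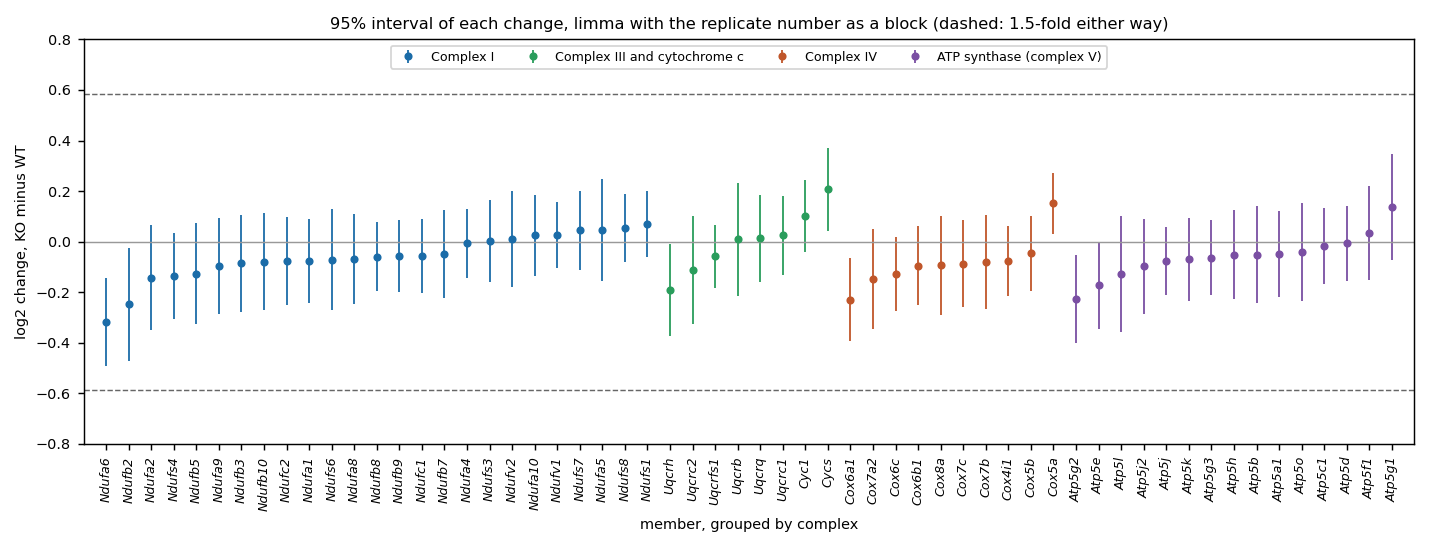
Log2 change of each of the 58 genes (KO minus WT, vertical axis, log2(CPM + 1) scale), grouped by complex along the horizontal axis; points are changes and bars their 95% intervals from limma with the replicate number as a block, and dashed lines mark 1.5-fold either way. Every interval lies between the dashed lines, from Ndufa6 at -0.32 to Cycs at 0.21.

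Direction differed between replicate numbers. Within number 1, KO was lower than WT for 52 of the 58 genes (59.7% of all tested genes), with a median of -0.17. Within number 2 KO was lower for 17 (50.3% of all), with a median of 0.048, and within number 3 for 42 (61% of all), with a median of -0.044. Over all tested genes the medians within numbers 1, 2 and 3 were -0.053, -0.0016 and -0.042. Lower in KO in all 3 numbers were 16 members, against 29.9% of all tested genes, and higher in all 3 were 5, against 16.7%. Without WT replicate 1 the members' median was 0.0030, with 29 genes below 0 and 29 above, while the median over all tested genes was -0.054. Without KO replicates 2 and 3, the libraries rich in myeloid transcripts, the members' median was -0.05, with 41 below 0, and that over all tested genes -0.11. Rescaling all libraries to equal totals gave a median of -0.0061, with 33 members below 0, and a median over all tested genes of 0.024.

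**Figure D2:**
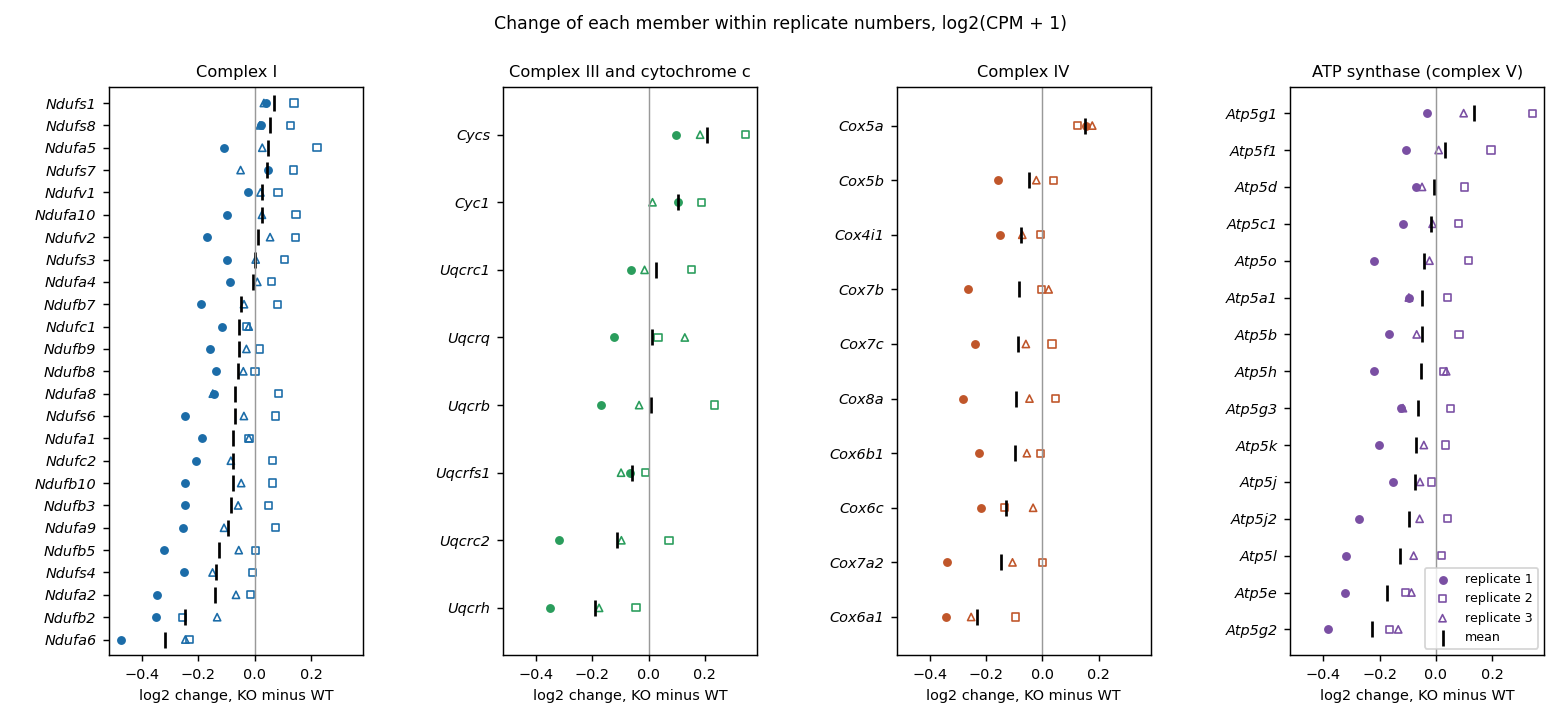
Log2 change of each gene within each replicate number (KO minus WT, horizontal axis, log2(CPM + 1)), with 1 panel per complex; filled circles, open squares and open triangles stand for replicate numbers 1, 2 and 3 and black bars for the mean. Circles lie left of 0 for 52 of 58 genes and squares for 17.

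KO and WT libraries overlapped for most members, as they did for most tested genes. All KO libraries lay below all WT libraries for 6 of the 58 members, against 6.29% of all tested genes. These were Ndufa1, Ndufa6, Uqcrh, Cox6a1, Atp5g2 and Atp5j. They lay above all WT libraries for 1 of the 58, Cox5a, against 3.21%.

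Complex I showed its lowest changes among accessory subunits, which surround the catalytic arms. Its 25 genes summed to 2246, 2413 and 2222 CPM in KO 1 to 3 and to 2508, 2316 and 2276 CPM in WT 1 to 3, a ratio of 0.969 between means. The median log2 change was -0.06, and -0.17, 0.062 and -0.039 within replicate numbers 1, 2 and 3. The 19 accessory genes, with Ndufa4 counted among them by name, had a median of -0.076 with 17 below 0. Their medians within numbers 1, 2 and 3 were -0.21, 0.049 and -0.048, and only 6 were lower in number 2. The 6 core genes carry the flavin and iron-sulphur clusters or lie beside the quinone site. They all lay at or just above 0, between 0.0022 and 0.07, with a median of 0.035. Within the numbers their medians were -0.0019, 0.13 and 0.019. This split by role was drawn with the values known, and the difference was not tested.

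Ndufa6, an accessory subunit of the LYR protein family that binds the mitochondrial acyl carrier protein, had 90.1, 104 and 88.7 CPM in KO and 126, 123 and 105 CPM in WT. Every KO library lay below every WT library, and the mean was 94.3 ± 8.62 CPM in KO and 118 ± 10.9 CPM in WT (SD, n = 3 each). Its log2 change was -0.32 (95% interval -0.49 to -0.14 with the block; limma adjusted p = 0.9998 without and 0.119 with the block). Ndufb2, a small accessory subunit of the membrane arm, had 10.4, 13.9 and 11.5 CPM in KO and 13.6, 16.8 and 12.7 CPM in WT. The groups overlapped, although KO was lower within each number, with a log2 change of -0.25 (limma with the block, adjusted p = 0.215). Ndufs4, an accessory subunit whose loss causes Leigh-like encephalopathy in mice, had 61.4, 69.2 and 60.0 CPM in KO and 73.2, 69.6 and 66.7 CPM in WT, with overlap and a log2 change of -0.14. Ndufb5, also of the membrane arm, had 114, 120.6 and 111 CPM in KO and 143, 120.4 and 116 CPM in WT. Its WT 1 value stood above the other 5, which lay close together.

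Among core subunits, Ndufs1, which holds iron-sulphur clusters in the NADH-oxidising arm, had 196, 228 and 199 CPM in KO and 191, 207 and 194 CPM in WT. It was higher in KO within each number, by 0.07 on the log2 scale in the mean, and the groups overlapped. Ndufs3, a core subunit of the arm near the quinone site, had 56.7, 61.8 and 58.3 CPM in KO and 60.9, 57.4 and 58.2 CPM in WT, the smallest change of the complex at 0.0022. Ndufa4, named as a complex I gene and later assigned to complex IV, had 168, 163 and 159 CPM in KO and 179, 156 and 158 CPM in WT, with a log2 change of -0.0070.

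Complex III and cytochrome c held members on both sides of 0. The 8 genes summed to 1239, 1347 and 1193 CPM in KO 1 to 3 and to 1352, 1239 and 1218 CPM in WT 1 to 3, a ratio of 0.992. Their median log2 change was 0.01, and -0.093, 0.11 and -0.024 within numbers 1, 2 and 3. With any 1 library left out it lay between -0.04 and 0.03.

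Cycs, which encodes somatic cytochrome c, the mobile carrier between complexes III and IV and a trigger of apoptosis when released, had the highest change of the 58. It had 165, 169 and 146 CPM in KO and 154, 133 and 129 CPM in WT. KO was higher within each number, and KO 3 lay below WT 1. The log2 change was 0.21 (95% interval 0.04 to 0.37 with the block; limma with the block, adjusted p = 0.181). Cyc1, cytochrome c1 of complex III, had 165, 191 and 155 CPM in KO and 154, 167 and 154 CPM in WT, with a log2 change of 0.10. Uqcrh, the acidic hinge subunit beside cytochrome c1, moved the other way, with 171, 180.1 and 161 CPM in KO and 219, 186 and 182 CPM in WT. Its groups did not overlap, and the log2 change was -0.19 (limma with the block, adjusted p = 0.229). Uqcrc2, a core scaffold subunit, had 224, 252 and 218 CPM in KO and 279.8, 239.8 and 233 CPM in WT, with a log2 change of -0.11, and -0.32, 0.073 and -0.096 within numbers 1, 2 and 3. Uqcrb, which sits near the quinone site, had 86.2, 117 and 77.0 CPM in KO and 97.1, 99.4 and 78.9 CPM in WT, with a log2 change of 0.01.

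In complex IV 9 of 10 genes lay below 0. The sum was 2103, 2072 and 1967 CPM in KO 1 to 3 and 2435, 2082 and 2029 CPM in WT 1 to 3, a ratio of 0.938, the lowest of the complexes. Most of that gap was in replicate number 1: the ratios within numbers 1, 2 and 3 were 0.864, 0.995 and 0.969. The median log2 change was -0.09, and it was 0.010 without WT replicate 1.

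Cox6a1, the widely expressed isoform of a regulatory subunit, had 139.8, 139 and 144 CPM in KO and 178, 148 and 171 CPM in WT. All KO libraries lay below all WT libraries, with means of 141 ± 2.53 CPM in KO and 166 ± 15.4 CPM in WT (SD, n = 3 each) and a log2 change of -0.23 (limma with the block, adjusted p = 0.160). Cox5a, a matrix-side subunit, was the exception in direction, with 159, 167 and 156 CPM in KO and 143, 153 and 138 CPM in WT. All KO libraries lay above all WT libraries, with a log2 change of 0.15 (limma with the block, adjusted p = 0.181), and within numbers 1, 2 and 3 the change was 0.15, 0.13 and 0.18. Its partner by name, Cox5b, which binds zinc, had 172, 175 and 167 CPM in KO and 192, 170.3 and 170.0 CPM in WT, the smallest change of the complex at -0.05.

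Cox6c had 299.6, 269 and 273 CPM in KO and 348, 296 and 279 CPM in WT, with a log2 change of -0.13, lower within each number although the groups overlapped. Cox8a had 198, 203 and 204 CPM in KO and 241, 197 and 211 CPM in WT, with a log2 change of -0.09. Cox4i1, the main isoform of the largest nuclear-encoded subunit, had 335, 355 and 312 CPM in KO and 372, 356 and 328 CPM in WT, with a log2 change of -0.08. In each of these 3 genes WT 1 was the highest library.

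**Figure D3:**
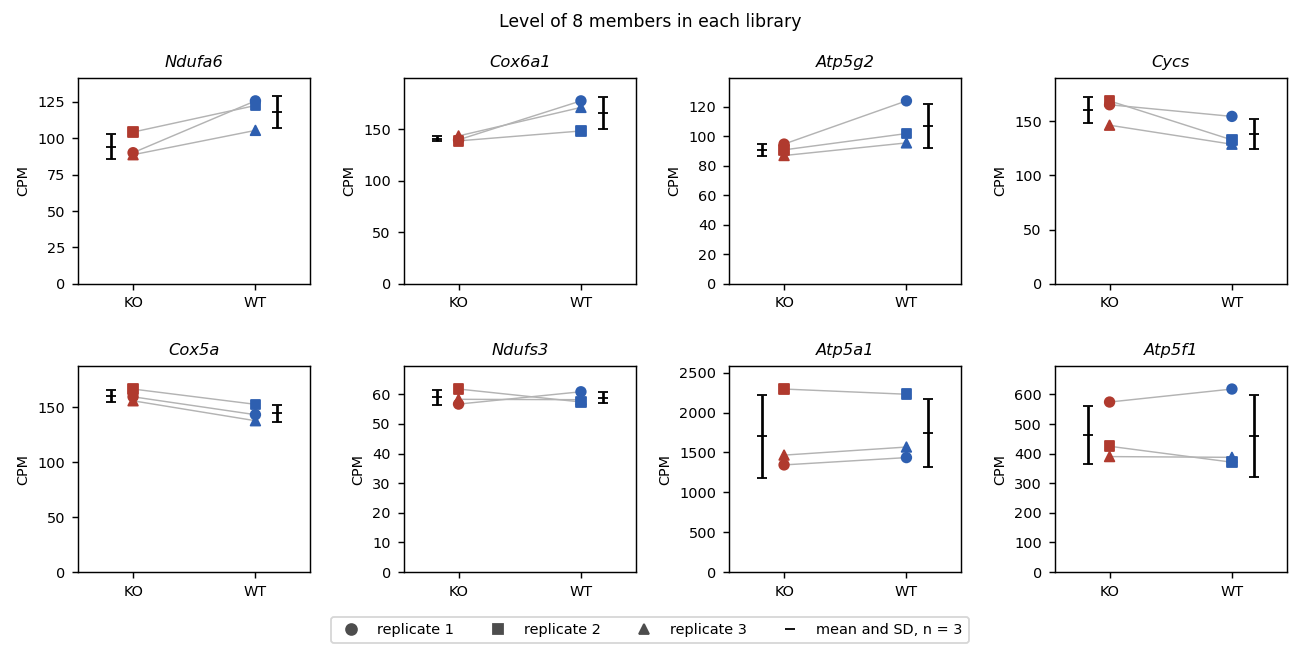
CPM of 8 genes in each library (vertical axis from 0), KO left and WT right in each panel; symbols are replicates 1 to 3, grey lines join equal numbers and bars give mean ± SD (n = 3). Groups do not overlap for Ndufa6, Cox6a1, Atp5g2 and Cox5a, while in Atp5a1 and Atp5f1 the replicate numbers differ more than KO and WT do.

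ATP synthase genes were close to WT levels as well. The 15 genes summed to 5408, 6580 and 5335 CPM in KO 1 to 3 and to 5989.9, 6270 and 5558 CPM in WT 1 to 3, a ratio of 0.972. All 15 were lower in KO within number 1, 3 within number 2 and 12 within number 3. The median log2 change of -0.05 became 0.0030 with equal totals.

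The catalytic head is built of alpha and beta subunits around a central stalk. Atp5b, the catalytic beta subunit, had 1613, 1918 and 1703 CPM in KO and 1810.3, 1812 and 1786 CPM in WT. Its log2 change was -0.05, and 0.078 after quantile normalization. Atp5a1, the alpha subunit, had 1344, 2296 and 1467 CPM in KO and 1436, 2231 and 1568 CPM in WT, so that replicate 2 was the highest library in both groups and the log2 change was -0.05. In the central stalk Atp5d (delta) had 119, 121 and 103 CPM in KO and 125, 113 and 107 CPM in WT, and Atp5e (epsilon) had the lowest change of the head and stalk. Atp5e had 72.3, 80.3 and 73.5 CPM in KO and 90.6, 86.7 and 78.1 CPM in WT, with a log2 change of -0.17 (limma with the block, adjusted p = 0.237).

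Of the peripheral stalk, which holds the head still, Atp5j had 122, 126 and 126 CPM in KO and 136, 127 and 131 CPM in WT. Its groups did not overlap, at a log2 change of -0.08. Atp5f1, the b subunit, had 574, 425 and 389.97 CPM in KO and 618, 371 and 387 CPM in WT, with replicate 1 highest in both groups and a log2 change of 0.03. The small membrane subunit Atp5j2 had 147, 157 and 141 CPM in KO and 178, 152 and 147 CPM in WT, with a log2 change of -0.10.

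Subunit c, which forms the rotor ring in the membrane, is made from 3 genes whose mature proteins are identical. Their mean changes did not share a direction. Within number 1 all 3 were lower in KO, and only Atp5g2 kept its direction in every number. Atp5g1 had 151, 162 and 123 CPM in KO and 154, 128 and 115 CPM in WT, with a log2 change of 0.14. Atp5g2 had 94.7, 90.8 and 87.0 CPM in KO and 124, 102 and 95.5 CPM in WT, without overlap and with a log2 change of -0.23 (limma with the block, adjusted p = 0.174). Atp5g3 had 195, 197 and 169 CPM in KO and 212, 191 and 183 CPM in WT, with a log2 change of -0.06. Within each library the ratio of Atp5g1 to Atp5g2 was 1.59, 1.79 and 1.42 in KO and 1.24, 1.25 and 1.20 in WT. The ratio was higher in every KO library, by 0.37 on the log2 scale (exact two-sided permutation test, p = 0.1, the smallest that 3 against 3 allows; 0.1 after Benjamini-Hochberg adjustment over the 3 ratios of the trio). Atp5g1 and Atp5g2 are among 10 members with near-identical pseudogene copies elsewhere in the genome, at 97% identity or more over at least 100 bases, the others being Atp5f1, Atp5h, Atp5l, Atp5o, Cox7c, Cycs, Ndufs3 and Uqcrb. None of the 18 copies is a row of the table, so the values of these members are uncertain to the extent that the counting split or dropped shared reads.

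For most members the replicate numbers differed more than KO and WT did. The mean of KO and WT ranged over replicate numbers by more than the KO change for 47 members (81.0%), against 86.7% of all tested genes. The range over numbers had a median of 0.165 on the log2 scale among the members and 0.370 among all tested genes. It was largest for Atp5a1 at 0.70 and Atp5f1 at 0.62, in which the replicate numbers that stood high differed, as given above, followed by Ndufa2 at 0.53 and Uqcrb at 0.46.

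Other genes of the pathway, taken from lists of known parts and helpers, had list medians near 0 too. Limma with the block called 0 of the 12 other complex I subunits tested (median log2 change -0.02), 0 of 7 other subunits of complexes III to V (-0.08), 0 of 4 complex II genes (0.03), 0 of 14 complex I assembly factors (0.04), 0 of 6 for complex III (0.05), 0 of 20 for complex IV (0.0051), 0 of 3 for ATP synthase (0.10), 0 of 6 adenine nucleotide, phosphate and VDAC carriers (0.08) and 0 of 47 proteins of the large mitochondrial ribosome subunit (0.03). The list of 12 transcription regulators also had 0 called (-0.04). That fit called 0.873% of all tested genes, a share at which lists of this size would hold few or no calls anyway. Single genes lay further out, with complex IV assembly factors between -0.34 and 0.23. DESeq2 with the block called 1 other complex I subunit lower (3.99% of all tested genes) and 1 carrier higher (3.02%), Ndufv3 and Slc25a5, both given below. Nrf1 had 82.3, 96.5 and 100.0 CPM in KO and 85.5, 107 and 113 CPM in WT, and Pprc1, a PGC-1-related coactivator, had 62.7, 54.3 and 42.6 CPM in KO and 71.6, 62.1 and 51.6 CPM in WT, with log2 changes of -0.12 and -0.22.

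Ndufv3, an accessory subunit next to the NADH site that is not among the 58, had a larger change than any of the 25 Nduf members. It had 36.8, 34.2 and 33.6 CPM in KO and 66.4, 48.8 and 49.3 CPM in WT. No KO library reached a WT library, and the log2 change was -0.62. The call depended on the test: the adjusted p was 0.747 in limma without the block, 0.0541 with it, 0.0669 in edgeR with the block and 1.2e-05 in DESeq2 with the block.

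The mitochondrially encoded partners of these subunits were highest in KO 1. Of 13 such genes 10 passed the filter, with a median log2 change of 0.47, and 1.14, 0.082 and 0.22 within numbers 1, 2 and 3. Limma called 0 of them in either fit, against 0.00949% of all tested genes without the block and 0.873% with it. Higher in KO in all 3 numbers were 7 of the 10, against 16.7% of all tested genes, and lower in all 3 were 0, against 29.9%. The 10 genes share their libraries, so they are not separate observations. mt-Nd5, a proton-pumping subunit of complex I, had 2054, 243 and 281 CPM in KO and 426, 195 and 222 CPM in WT. mt-Nd6 had 221, 77.1 and 71.3 CPM in KO and 89.3, 54.6 and 83.5 CPM in WT. Without KO replicate 1, but with WT replicate 1 kept, the median of the list was -0.03. The 58 nuclear genes had their lowest summed ratio, 0.895, in number 1, the number low in Vpreb1 and Igll1; the part of that in their values was not tested.

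Glycolytic enzymes, which make ATP outside mitochondria, are given as a scale for the changes above; this list of 15 tested genes was added with earlier results of these data known. Its median log2 change was -1.20, and -1.69, -1.17 and -0.97 within numbers 1, 2 and 3, with 15 of 15 lower in KO in every number. Limma with the block called 11 of the 15 lower, against 0.741% of all tested genes, and 0 without the block; edgeR with the block called 6, against 0.323%, and DESeq2 with the block 14, against 3.99%. Pfkl, a phosphofructokinase, had 77.1, 109 and 73.8 CPM in KO and 339.7, 353 and 249 CPM in WT, with a log2 change of -1.85 (limma with the block, adjusted p = 0.0125). Ldha, lactate dehydrogenase A, had 1145, 1274 and 1055 CPM in KO and 3764, 2921 and 2414 CPM in WT, with a log2 change of -1.37 (adjusted p = 0.0313 in the same limma fit). The change of every one of the 58 respiratory genes was nearer to 0 than the median of this list.

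**Figure D4:**
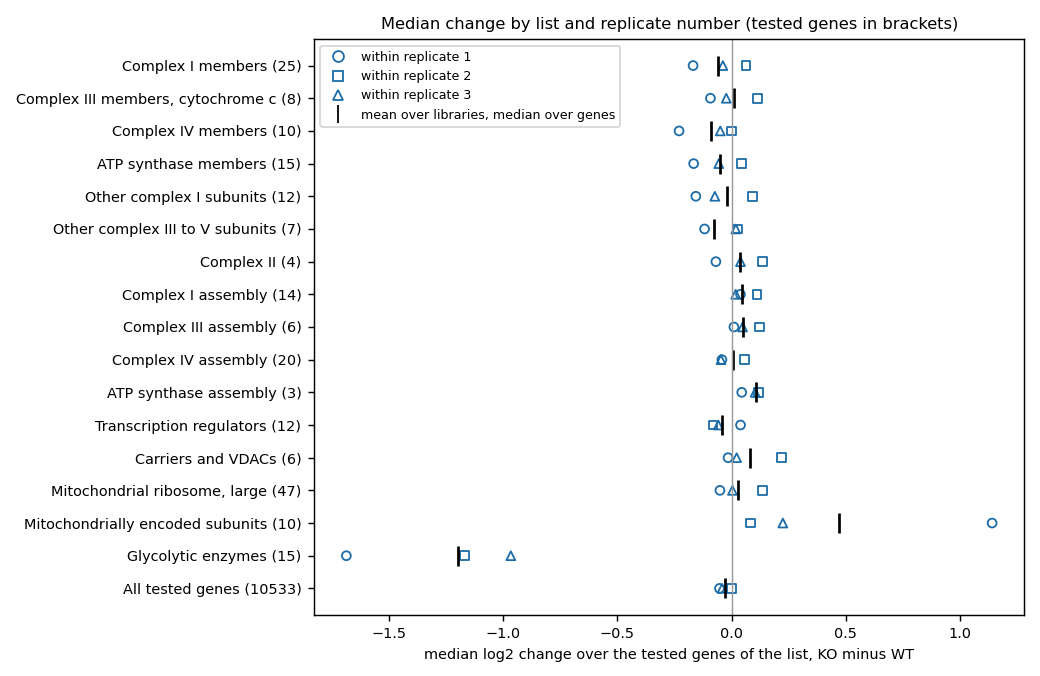
Median log2 change (KO minus WT, horizontal axis) over the tested genes of each list, with the number of genes in brackets; circles, squares and triangles are medians within replicate numbers 1, 2 and 3, and black bars the median of the change over all libraries. The 4 groups of respiratory genes lie between -0.09 and 0.01, the mitochondrially encoded genes at 0.47 and the glycolytic enzymes at -1.20.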

How the data were processed

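RNA was sequenced from 3 KO and 3 WT libraries, made as directional libraries per the labels' protocols. The submitters' processing notes name the mm9 build and, without roles or order, edgeR, HTSeq, STAR 2.4.2a and CASAVA; the sources used here give neither the annotation nor whether reads were counted by strand. The deposited values, handled as a normalized signal, came out as whole reads on a counts-per-million scale with a normalized library total (100% of values whole within 0.01 of a read), that total being 0.970 to 1.04 times the library's own; they were expected to be FPKM but are not divided by length. Counting error was not set against the spread between libraries, and it weighs most on low genes such as Cox7a1 and Ndufa4l2.

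Values were tested with limma 3.58.1 in R 4.3.3 on log2(value + 1), two-sided, with no block and the prior variance following a trend, over the 10533 genes with a mean of at least 1, with Benjamini-Hochberg adjustment at 0.05. Alternatives were a replicate block, pseudocounts of 0.5 and 0.1, no filter, equal totals, quantile normalization, libraries left out, and edgeR 4.0.16 and DESeq2 1.42.0 on the recovered reads. Same-numbered libraries deviated together from their group means (Pearson r over genes of 0.73, 0.73 and 0.84), so the numbers were taken as pairs, from the data and not from the labels. Other pairs had r of -0.61 to -0.14. Deviations cancel out within a group, so these negative values follow from the positive ones and add no separate evidence of pairing. No 2 libraries of a group were copies (chi-square per degree of freedom 68.1 or more). The code was tested on simulated data. Named in full are, per complex, the 4 members with the smallest p, the one with the smallest change and the one with the highest level, any member called by limma, the Atp5g trio, Cycs and Ndufa4, and up to 2 genes of each related list, of which some are given here; other members and genes named for a count, a listing or a role were chosen after their values were seen. Members and lists were chosen with earlier results of these data known, so no set test was made. Promoters are from RefSeq, GRCm38.p6; no mm9 coordinates were used.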

Additional observations from a re-analysis of the deposited data

How the results depend on the processing

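Members called were 0 in each direction under every setting except DESeq2 with a replicate block, which called 1 higher and 1 lower. Over all tested genes the counts depended on the test: the fit without a block called 0 higher and 1 lower, the replicate block 14 higher and 78 lower, edgeR 0 and 0, edgeR with the block 5 and 34, DESeq2 31 and 79, and DESeq2 with the block 318 and 420. A pseudocount of 0.1, no filter on low values, quantile normalization and leaving out KO replicates 2 and 3 gave 0 lower. Leaving out single libraries, or both libraries of a number in the blocked fit, gave 0 to 486 higher and 0 to 354 lower, the upper values coming from the block without replicate 1; the cause was not tested.

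With equal totals the complex I and ATP synthase assembly lists had medians of 0.10 and 0.16. Without KO replicates 2 and 3, a fit in which the lone KO library is assumed to vary like WT, medians were -0.087 for complex II, -0.11 for complex IV assembly, -0.0031 for ATP synthase assembly, -0.18 for regulators and 1.52 for mitochondrially encoded subunits. Leaving out 1 library at a time gave ranges of 0.0060 to 0.10 for complex I assembly, -0.021 to 0.090 for complex III assembly, -0.070 to 0.031 for complex IV assembly, 0.030 to 0.16 for ATP synthase assembly, -0.12 to 0.095 for other subunits of complexes III to V and -0.11 to 0.031 for regulators. The median of the 58 genes ranged between -0.09 and 0.0030.

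Of 1080 values for 54 named genes over 20 settings, 1042 kept their side of the threshold with the same sign or a change of sign smaller than the SD of the gene's change over replicate numbers, 30 came to pass the threshold and 8 changed sign by more than that SD. Atp5b was at 0.078 under quantile normalization. Lyrm7 was at -0.0072 without WT replicate 1, the lowest of its range with single libraries left out, which reached 0.34 without KO replicate 1. Without KO replicates 2 and 3, Ndufs1 was at -0.0075, Sdha at -0.0062, Lyrm7 at -0.28, Atpaf2 at -0.0031, Tmem70 at -0.054 and Pprc1 at 0.033; the cause was not tested. With 3 libraries a group and no block, a 95% interval reached a median of 0.24 on the log2 scale to each side of a member's change, and 0.17 with the block.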

Other observations

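Isoforms of respiratory subunits that are restricted to muscle, lung, testis or other tissues were mostly near 0 in these lymphoma cells. Of 8 such genes, 2 passed the filter of a mean of 1 CPM. Cox7a1, the heart and muscle isoform of a complex IV subunit, had 1.56, 1.56 and 1.49 CPM in KO and 7.05, 5.29 and 3.49 CPM in WT. All KO libraries were alike and below all WT libraries, with a log2 change of -1.27 on the log2(CPM + 1) scale, which understates changes of low genes. DESeq2 called it with and without the block (adjusted p = 1.9e-04 and 0.00706), while limma and edgeR with the block gave adjusted p values of 0.0671 and 0.0803. Ndufa4l2, a paralogue of Ndufa4 induced by hypoxia, had 0.233, 0 and 0.119 CPM in KO and 36.9, 0.577 and 0.342 CPM in WT. It passed the filter through WT 1 alone, so no fold is given for it.

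Slc25a5, an inner-membrane ADP/ATP carrier, had 1048, 994 and 878 CPM in KO and 935, 813 and 755 CPM in WT. It was higher in KO within each number, with a log2 change of 0.22 and adjusted p values of 0.147 in limma and 7.6e-05 in DESeq2, both with the block.

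Among the 58 members the change in KO went along with the exon length of the gene, which has a median of 992 bases in the members and 3330 in all tested genes. Length here is the union of all exons of a gene in the basic GENCODE annotation, and can exceed that of the transcript expressed. Spearman's rho between length and log2 change was 0.41 across the 58 genes, and 0.45, 0.36 and 0.28 within replicate numbers 1, 2 and 3. Across 10531 tested genes with a length it was 0.054, and 0.16, -0.078 and 0.039 within the numbers. Genes are not independent replicates and share their libraries, so these are descriptions.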
